A study of Homo sapiens with 6 samples.

Results

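The 43 genes described here encode proteins of 5 DNA repair pathways, and they were picked by symbol from a list of genes grouped by function. They comprise 13 end joining genes, 11 base excision genes, 7 genes of single-strand break repair, 3 mismatch repair genes and 9 nucleotide excision genes. All 43 symbols were found among the 19977 of the expression table, and 42 averaged 1 TPM or more across the 6 libraries and were tested. The exception was the DNA glycosylase gene NEIL1, which lay between 0.252 and 0.428 TPM. TPM, a measure of transcript abundance, corrects reads for transcript length and for the size of the library, so that levels of different genes can be set side by side. The list is not a complete inventory of these pathways.

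The RNA came from U2OS, a human osteosarcoma cell line, otherwise untreated, 48 hours after siRNA transfection. One group of 3 libraries received a non-targeting control siRNA (siCtrl) and the other group of 3 an siRNA targeting NUDT5 (siNUDT5), whose product hydrolyses ADP-ribose. Every library came from the same line under transient knockdown, and the sources used here do not say whether they came from separate cultures or how many siRNA sequences were used. P-values thus reflect only how much these libraries vary, and that variation could be technical.

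End joining rejoins both strands of a broken chromosome. The Ku heterodimer binds the ends and recruits the kinase DNA-PKcs, nucleases and polymerases trim and fill, and the XRCC4-LIG4 ligase seals. Base excision begins with a DNA glycosylase that removes a damaged base, after which the endonuclease APE1 cuts the backbone and a polymerase and a ligase fill the gap. Single-strand break repair shares those last steps and adds enzymes that clean blocked ends, and it is the branch in which ADP-ribose chains recruit the scaffold XRCC1. Mismatch repair removes replication errors, and nucleotide excision cuts out a stretch of strand around bulky or ultraviolet damage.

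NUDT5 mRNA showed the knockdown in each library, at 46.2, 48.999 and 52.0 TPM in siCtrl 1 to 3 against 3.04, 2.74 and 2.67 TPM in siNUDT5 1 to 3. That left 5.74% of the control mean (log2 change -3.71, adjusted p = 1.32e-06, exact two-sided permutation p = 0.1, the smallest that 3 against 3 allow). Relative depth, read from steps in low TPM values, ran from 64.1% in siCtrl 2 to 118.2% in siNUDT5 2 of that of siCtrl 1. Mesenchymal VIM (3028 to 3589 TPM) and SPARC (701 to 824 TPM) were high in every library, while the blood cell genes PTPRC, CD3E and ITGAM stayed below 1 TPM. COL1A2, which is also in the mesenchymal list, was at most 0.393 TPM, and the epithelial keratin gene KRT18 lay between 442 and 617 TPM. siCtrl 2 stood apart, with a median absolute log2 difference over all genes of 0.296 from siCtrl 1 and 0.227 from siCtrl 3, against 0.107 between the latter, and log2 changes that moved by over 1.5 times without it are given both ways.

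Levels differed widely among the 43 genes. The Ku genes XRCC6 and XRCC5 and the endonuclease gene APEX1 were far above the rest, with means over the 6 libraries of 947, 576 and 718 TPM. PRKDC, which encodes DNA-PKcs, followed at 144 TPM, then MSH6 at 119, UNG at 115 and DDB1 at 109 TPM. At the other end stood APLF at 2.14 and ERCC5 at 1.53 TPM. The median of the 42 tested members was 32.6 TPM, against 22.4 TPM over all 12236 tested genes. The ligase and gap-filling polymerases of end joining were much lower than the Ku genes, with LIG4 at 15.3, POLL at 11.3 and POLM at 9.56 TPM.

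**Figure D1:**
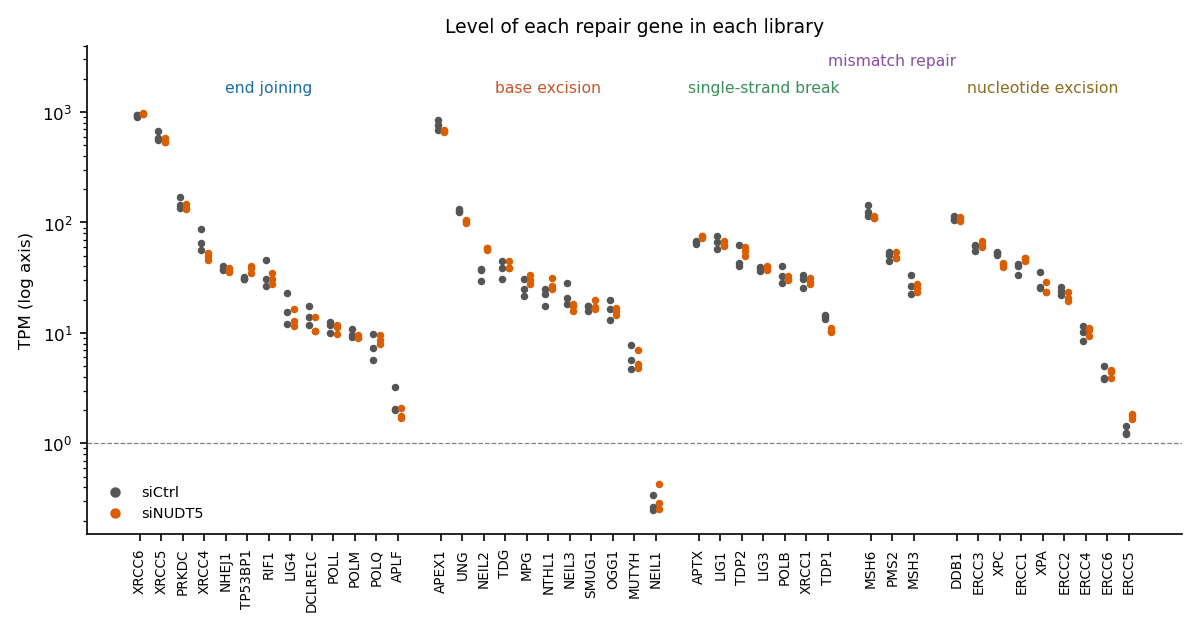
TPM of each of the 43 genes (log axis) in each siCtrl library (grey) and siNUDT5 library (orange), grouped by pathway and ordered by mean. XRCC6, XRCC5 and APEX1 stand above the other 40 genes in every library, and NEIL1 alone lies below the dashed line at 1 TPM.

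Few of these genes passed the threshold between the groups, which does not show that the others were unchanged. Of 42 tested members 1 rose, NEIL2, and 3 fell, UNG, TDP1 and XPC, at an adjusted p under 0.05 (limma on log2(TPM + 1), Benjamini-Hochberg over all genes). These 4 are 9.52% of the members, whereas 16.1% of all 12236 tested genes passed, 10.9% higher and 5.20% lower. The split between directions moved with scaling, from 1334 higher and 636 lower genes to 1034 and 904 with median-ratio scaling and 1018 and 965 with quantile normalization. The share among repair genes was below the 16.1% of all genes, and whether it differs from it was not tested. After an adjustment for GC content, described below, the shares were 40.5% and 40.8%. At an unadjusted p under 0.05 the counts were 9 of 42 members (21.4% of them) and 31.0% of all genes. In 12 members (28.6%) all 3 siNUDT5 values lay on one side of all 3 control values, as they did in 37.3% of all tested genes. The median log2 change of the members was -0.05 and that of all genes 0.05. For all 42 members the 95% confidence interval lay inside a log2 change of 1 in either direction, and for 26 of them inside 0.5.

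**Figure D2:**
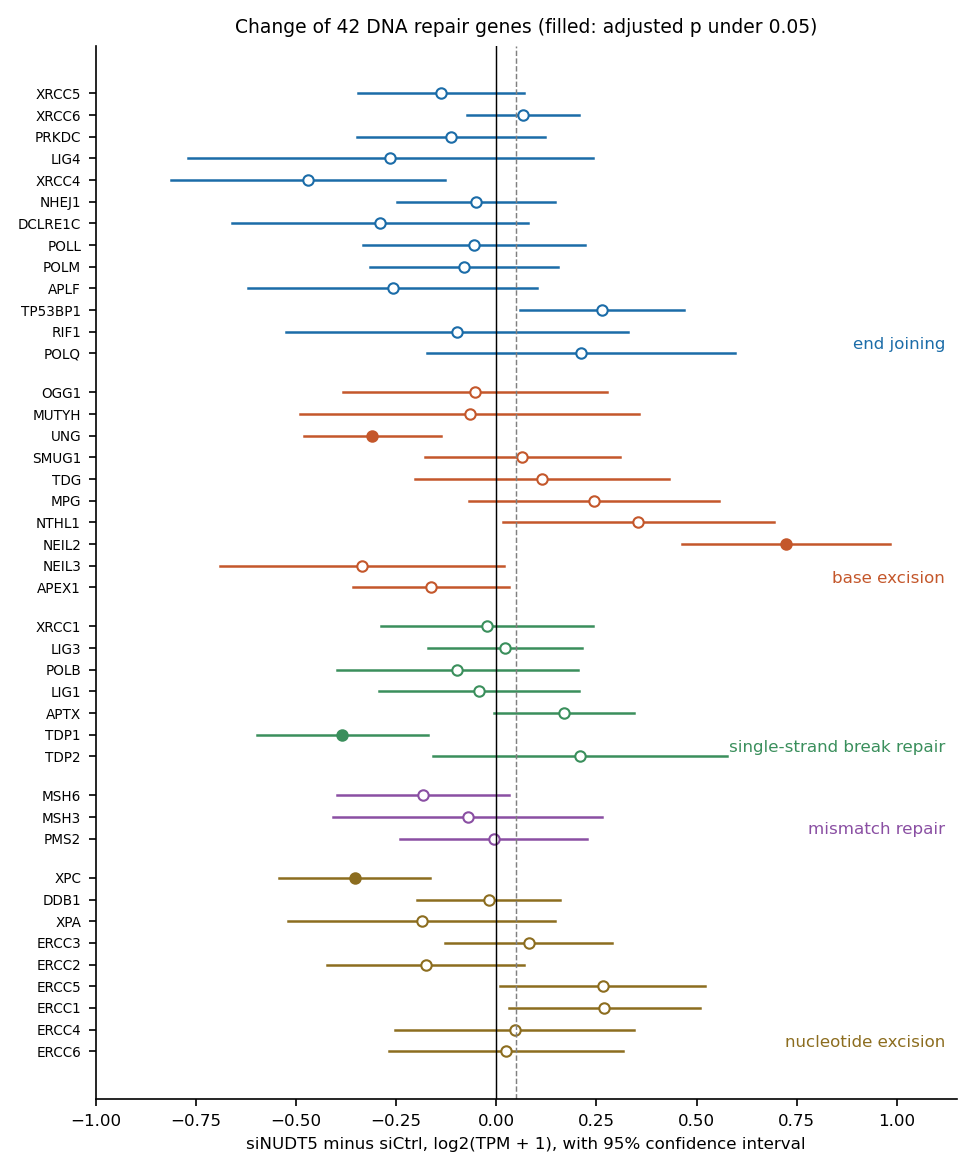
Log2 change (siNUDT5 minus siCtrl, log2(TPM + 1) scale) of the 42 tested genes with its 95% confidence interval, by pathway. Filled points are the 4 genes past an adjusted p of 0.05, the dashed line is the median of all tested genes at 0.05, and most intervals include 0.

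By pathway, 0 of 13 end joining genes passed, 2 of 10 base excision genes, 1 of 7 single-strand break genes, 0 of 3 mismatch repair genes and 1 of 9 nucleotide excision genes. Their median log2 changes, in this order, were -0.10, 0.01, -0.02, -0.07 and 0.03. Without siCtrl 2 they were -0.05, -0.07, 0.04, 0.06 and 0.10, so that the sign turned in base excision, single-strand break and mismatch repair. At an unadjusted p under 0.05 the counts were 2, 3, 1, 0 and 3, where 31.0% of all tested genes lay under it. The adjusted calls were 20% of base excision, 14.3% of single-strand break and 11.1% of nucleotide excision genes, beside 16.1% of all tested genes. Whether the pathways differ from one another was not tested.

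None of the genes that sense the break in end joining passed the threshold. The control libraries, here and below in the order siCtrl 1, 2 and 3, held XRCC6 mRNA at 898, 946 and 932 TPM, and the siNUDT5 libraries, likewise in order, at 968, 986 and 952 TPM. The groups did not overlap, with a small log2 change of 0.07 (standard error 0.06, adjusted p = 0.512). XRCC5 stood at 553, 679.9 and 582 TPM in siCtrl and at 578, 532 and 534 TPM in siNUDT5. In this gene siCtrl 2 was above every other library and the remaining values of both groups were interleaved (log2 change -0.14, adjusted p = 0.342, and -0.05 without siCtrl 2). PRKDC had the same shape, with siCtrl 2 highest at 171 TPM and the other 5 libraries between 133 and 146 TPM (-0.11, adjusted p = 0.501, and -0.01 without siCtrl 2).

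XRCC4 and TP53BP1 came closest to the threshold among end joining genes. XRCC4, the partner and stabiliser of ligase IV, stood at 56.9, 87.3 and 65.0 TPM in siCtrl and at 52.5, 49.9 and 45.7 TPM in siNUDT5. Every siNUDT5 library lay below every control, with a log2 change of -0.47 (standard error 0.15, adjusted p = 0.0678). The gene was past the threshold without siCtrl 2 (log2 change -0.30, adjusted p = 0.0210) and without siCtrl 1 (-0.60, adjusted p = 0.0200). TP53BP1, whose product shields ends from resection, stood at 31.0, 30.9 and 31.9 TPM in siCtrl and at 40.3, 38.4 and 34.8 TPM in siNUDT5. The groups did not overlap (log2 change 0.26, standard error 0.09, adjusted p = 0.0819), and without siCtrl 2 the adjusted p was 0.0391. Its effector RIF1 had a log2 change of -0.10, with siCtrl 2 at 45.6 TPM and the other libraries between 26.5 and 34.9 TPM, and without siCtrl 2 its sign turned to 0.12.

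None of the remaining end joining genes passed. LIG4, the ligase itself, stood at 12.0, 23.2 and 15.6 TPM in siCtrl and at 16.4, 11.6 and 12.8 TPM in siNUDT5, and the confidence interval of its log2 change of -0.26 ran from -0.77 to 0.24. DCLRE1C, the gene of the nuclease Artemis, had a log2 change of -0.29 and the gene APLF, whose product binds Ku and ADP-ribose chains, one of -0.26, neither past the threshold. Without siCtrl 2 the log2 changes were -0.02 in LIG4, -0.15 in DCLRE1C and -0.10 in APLF. The XLF gene NHEJ1 (-0.05) and the gap-filling polymerase genes POLL (-0.06) and POLM (-0.08) did not pass, and without siCtrl 2 POLL was at -0.14 and POLM at -0.12. POLQ, the polymerase of microhomology-mediated joining, averaged 7.56 ± 1.996 TPM in siCtrl and 8.75 ± 0.793 TPM in siNUDT5 (SD, n = 3 each), with a log2 change of 0.21. Without siCtrl 2 its log2 change was 0.38 with adjusted p = 0.0302.

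Among the DNA glycosylase genes NEIL2 rose and UNG fell. NEIL2, which removes oxidised pyrimidines, stood at 38.2, 29.2 and 37.2 TPM in siCtrl and at 59.0, 58.6 and 55.9 TPM in siNUDT5. All 3 siNUDT5 values lay above all controls, and siCtrl 2 was the lowest of the controls. It rose to 166% of the control mean, a log2 change of 0.72 (standard error 0.11, adjusted p = 0.00512). NEIL2 kept its call under each of 15 other settings, with log2 changes between 0.60 and 0.79 and adjusted p between 6.23e-05 and 0.0314.

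UNG, the uracil-DNA glycosylase gene, stood at 131, 123 and 128 TPM in siCtrl and at 104, 106 and 98.3 TPM in siNUDT5. The groups were well separated, with the highest siNUDT5 library below the lowest control. UNG fell to 80.6% of the control mean (log2 change -0.31, standard error 0.07, adjusted p = 0.0269). The call was lost without siCtrl 1 (adjusted p = 0.0555), siCtrl 3 (0.116), siNUDT5 1 (0.0958), siNUDT5 2 (0.0927) or siNUDT5 3 (0.132), with log2 changes from -0.33 to -0.28.

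None of the other glycosylase genes passed. NTHL1, which acts on oxidised pyrimidines like NEIL2, had groups that did not overlap, at 22.6, 17.4 and 24.94 TPM in siCtrl and 26.7, 31.7 and 24.94 TPM in siNUDT5. The highest control and the lowest siNUDT5 library were nearly equal, and its change of 0.36 on the log2 scale did not pass (standard error 0.15, adjusted p = 0.142, and 0.21 without siCtrl 2). NEIL3 had a log2 change of -0.34 (adjusted p = 0.183), with siCtrl 2 at 28.2 TPM and the other controls at 18.2 and 20.6 TPM, and without siCtrl 2 one of -0.16. The 8-oxoguanine glycosylase gene OGG1 (-0.05), MUTYH, which removes adenine opposite 8-oxoguanine (-0.07), SMUG1, another uracil glycosylase (0.06), TDG, which removes thymine opposite guanine (0.11) and the alkyladenine glycosylase gene MPG (0.24) were not past the threshold. Without siCtrl 2 these were at -0.20, -0.21, 0.01, 0.24 and 0.13. The endonuclease gene APEX1 stood at 839, 683 and 757 TPM in siCtrl and at 661, 693 and 674 TPM in siNUDT5, where only siCtrl 2 overlapped the siNUDT5 range (log2 change -0.16, adjusted p = 0.230). Without siCtrl 2, its lowest control, its log2 change was -0.24 with adjusted p = 0.0168.

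In single-strand break repair 1 end-cleaning gene, TDP1, fell. TDP1, which removes trapped topoisomerase I, stood at 14.4, 13.4 and 14.3 TPM in siCtrl and at 10.99, 10.2 and 10.3 TPM in siNUDT5. The groups did not overlap, and each spanned about 1 TPM or less. TDP1 fell to 75.0% of the control mean (log2 change -0.38, standard error 0.09, adjusted p = 0.0271). Its call was lost without siCtrl 1 (adjusted p = 0.0540), siCtrl 3 (0.121), siNUDT5 1 (0.0790), siNUDT5 2 (0.124) or siNUDT5 3 (0.112).

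TDP2, which removes trapped topoisomerase II, stood at 39.95, 61.9 and 43.1 TPM in siCtrl and at 60.5, 50.01 and 55.0 TPM in siNUDT5. Here siCtrl 2 lay above all siNUDT5 libraries and the other controls below them. TDP2 had a log2 change of 0.21 (adjusted p = 0.420) with siCtrl 2 and 0.40 (adjusted p = 0.00521) without it. APTX, which removes adenylate from failed ligations, had groups that did not overlap, at 63.4 to 67.6 TPM in siCtrl and 72.3 to 75.6 TPM in siNUDT5 (log2 change 0.17, adjusted p = 0.174).

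The scaffold and sealing genes of that pathway did not pass. XRCC1 averaged 29.99 ± 4.11 TPM in siCtrl and 29.4 ± 1.64 TPM in siNUDT5 (SD, n = 3 each). Its partner ligase gene LIG3 averaged 38.1 ± 1.58 and 38.7 ± 1.58 TPM, and the log2 changes were -0.02 and 0.02. The interval of XRCC1 ran from -0.29 to 0.24 and that of LIG3 from -0.17 to 0.21. The gap-filling polymerase gene POLB (-0.10) and the replicative ligase gene LIG1 (-0.04) were also not past the threshold. Without siCtrl 2 the log2 changes were -0.13 in XRCC1, 0.04 in LIG3, 0.04 in POLB and -0.14 in LIG1, with POLB turning sign. The sign of LIG3 turned with median-ratio scaling (-0.03), quantile normalization (-0.03) and GC adjustment (-0.02).

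Of the mismatch repair genes, MSH6 was the nearest to a difference. MSH6, a subunit of the complex that recognises base mismatches, stood at 115, 143 and 123 TPM in siCtrl and at 114, 109.8 and 110.2 TPM in siNUDT5. The groups did not overlap, but siCtrl 1 and siNUDT5 1 were almost equal (log2 change -0.18, standard error 0.09, adjusted p = 0.224, and -0.10 without siCtrl 2). MSH3, which recognises small loops, had a log2 change of -0.07 and the MutL endonuclease subunit gene PMS2 one of -0.01, each with siCtrl 2 as the highest control. Without that library both turned sign, to 0.08 and 0.06. PMS2 has near-identical copies in the genome, and how shared reads were counted was not given in the sources used here.

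In nucleotide excision the damage sensor gene XPC fell. XPC stood at 54.3, 50.6 and 53.1 TPM in siCtrl and at 42.8, 41.0 and 39.2 TPM in siNUDT5, without overlap. That was 77.9% of the control mean (log2 change -0.35, standard error 0.08, adjusted p = 0.0236). The call was lost without siCtrl 3 (adjusted p = 0.107), siNUDT5 1 (0.0716), siNUDT5 2 (0.102) or siNUDT5 3 (0.115). DDB1, a subunit of a ubiquitin ligase that recognises ultraviolet damage, averaged 109 ± 4.73 TPM in siCtrl and 108 ± 4.71 TPM in siNUDT5 (SD, n = 3 each). Its log2 change was -0.02 (interval from -0.20 to 0.16), and -0.05 without siCtrl 2.

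The verification, unwinding and incision genes did not pass. ERCC1, the partner subunit of the XPF nuclease, stood at 40.7, 33.6 and 41.7 TPM in siCtrl and at 47.7, 47.9 and 44.4 TPM in siNUDT5. The groups did not overlap (log2 change 0.27, standard error 0.10, adjusted p = 0.118, and 0.17 without siCtrl 2). ERCC1 overlaps another gene on the opposite strand, and whether strand was used in counting was not given in the sources used here. ERCC5, the gene of the XPG nuclease, stood at 1.25, 1.205 and 1.44 TPM in siCtrl and at 1.65, 1.85 and 1.79 TPM in siNUDT5 (log2 change 0.27, adjusted p = 0.146). Its exons are shared with a readthrough transcript of the neighbouring gene BIVM, which is listed at 0 in all 6 libraries, so how reads were divided between them is uncertain. ERCC4, which encodes XPF itself, was at 0.05, the helicase genes ERCC3 and ERCC2 at 0.08 and -0.18, XPA at -0.19 and the transcription-coupled repair gene ERCC6 at 0.03. Without siCtrl 2, ERCC4 was at 0.15, XPA at -0.04 and ERCC6 at 0.13. ERCC4 and ERCC6 changed sign with median-ratio scaling (-0.01 and -0.02) and quantile normalization (-0.03 and -0.04).

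**Figure D3:**
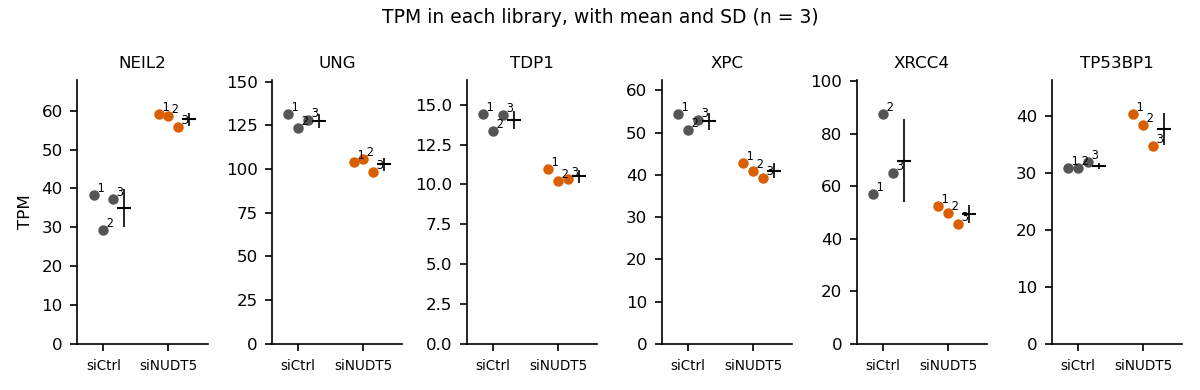
TPM in each library (points, numbered by replicate) with mean and SD (n = 3, bars) for the 4 genes past the threshold and for XRCC4 and TP53BP1. The siNUDT5 libraries lie above all controls in NEIL2 and TP53BP1 and below all controls in the other 4 genes, and siCtrl 2 is the highest of the XRCC4 controls.

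Several of these genes start back to back with a neighbour. In RefSeq (GRCh38.p14) 38 members had a promoter entry, 37 of them tested, and 14 of these 37 (37.8%) had a protein-coding gene on the opposite strand starting upstream within 1000 bases. Among 9214 tested genes with an entry the share was 16.2%. This search was chosen after the values were seen. In none of the 14 pairs did both genes pass, and 9 pairs had the same sign. XPC was the only one of these 14 members past the threshold, so no other pair could have had both. The same counts over all head-to-head pairs were not taken, so these counts are only a description. XPC and LSM3, an RNA-binding protein gene, start 216 bases apart, and LSM3 averaged 75.5 ± 2.99 TPM in siCtrl and 76.9 ± 2.59 TPM in siNUDT5 (SD, n = 3 each). Its log2 change was 0.03 (adjusted p = 0.856), and a test of XPC against LSM3 was not made. XRCC4 and TMEM167A start 153 bases apart, with log2 changes of -0.47 and 0.22, neither past the threshold with all libraries. Without siCtrl 2 XRCC4 was at -0.30 and passed (limma, adjusted p = 0.0210). TMEM167A stood at 45.4, 73.0 and 51.6 TPM in siCtrl and at 72.0, 59.0 and 64.6 TPM in siNUDT5. Here siCtrl 2 lay above all siNUDT5 libraries and the other controls below them. MAP1A, a microtubule-associated protein gene 314 bases from TP53BP1, rose from 17.4 ± 0.859 to 31.0 ± 1.07 TPM (log2 change 0.80, adjusted p = 0.00141). It was the 1 partner past the threshold.

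The promoters of XPC and XRCC4 are shown because XPC fell, XRCC4 had the smallest adjusted p of the end joining genes, and both start close to a head-to-head neighbour. Each runs from 250 bases before to 50 bases after the member's start in RefSeq (GRCh38.p14), at chr3:14178552-14178851 on the minus strand and chr5:83077297-83077596 on the plus strand. Capitals mark the stretch between the start of the neighbour and that of the member, and GC content is 60.3% and 60.7%.
XPC: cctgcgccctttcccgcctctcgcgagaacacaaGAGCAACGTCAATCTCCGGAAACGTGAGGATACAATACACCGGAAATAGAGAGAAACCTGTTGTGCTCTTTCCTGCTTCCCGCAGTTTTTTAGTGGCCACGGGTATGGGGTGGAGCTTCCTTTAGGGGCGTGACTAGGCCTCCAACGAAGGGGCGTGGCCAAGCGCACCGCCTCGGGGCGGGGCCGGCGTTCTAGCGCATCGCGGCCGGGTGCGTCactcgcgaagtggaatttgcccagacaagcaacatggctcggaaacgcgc
XRCC4: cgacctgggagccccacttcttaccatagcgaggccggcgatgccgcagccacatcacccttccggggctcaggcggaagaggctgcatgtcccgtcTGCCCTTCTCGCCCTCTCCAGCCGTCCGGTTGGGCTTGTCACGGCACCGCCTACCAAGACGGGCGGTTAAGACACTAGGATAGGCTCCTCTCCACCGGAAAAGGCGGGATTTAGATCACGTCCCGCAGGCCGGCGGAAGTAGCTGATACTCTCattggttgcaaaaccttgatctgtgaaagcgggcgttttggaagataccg

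Short words in 3' UTRs were searched in the members, AAGACTT and AGACTTA, which went with lower values in these libraries, and GATTAAC, which went with higher ones. The words were picked on the log2 changes of these same libraries, so they are given as a description. The stretch searched was the longest annotated 3' UTR of any transcript with a stop codon (GENCODE 29), whatever the class of transcript. Part of it may be coding sequence in other transcripts of the gene. In ERCC3 it took 2854 bases, where the longest such transcript has 3398. Whether a site lies in the 3' UTR of the main transcript was not checked, and the counts that follow may include coding sites. In these stretches 7 of 42 tested members (16.7%) held AAGACTT or AGACTTA, which share 6 bases, against 24.2% of 11481 searched genes. GATTAAC was found in 2 members (4.76%), DCLRE1C and TP53BP1, against 6.35% of genes. The log2 change was -0.29 in DCLRE1C and 0.26 in TP53BP1, so the 2 went in opposite directions. Of the 4 members past the threshold only XPC held any of these words, and the other 6 holders of the first pair were LIG4, POLQ, LIG3, MSH6, XPA and ERCC3. Their log2 changes ran from -0.26 in LIG4 to 0.21 in POLQ, and 4 of the 7 were below 0. The sites below, on the transcribed strand with the word in capitals, are those of the member that fell, of MSH6 and LIG3, and of TP53BP1. Each of these 4 stretches can be read in some frame without a stop codon. Any of them may thus be coding sequence, and they are not shown to be 3' UTR sites. They lie on chromosomes 3, 2, 17 and 15 and begin 1315, 2648, 3361 and 399 bases into the stretch searched, at the first capital.
XPC: ggagaagaaagAAGACTTggagtttcagg
MSH6: cttgcattacgAAGACTTtttttggagat
LIG3: cccaagtggctAAGACTTaacaaacaggc
TP53BP1: gtgaaggcccaGATTAACagttgtgccaa

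The pathways lay further apart in siCtrl 2 than in the comparison of the groups. In 9 of 13 end joining genes siCtrl 2 was the highest of the 3 controls, and in 8 of 10 tested base excision genes it was the lowest. The median difference between siCtrl 2 and the mean of the other controls was 0.30 for end joining, 0.26 for mismatch repair and -0.28 for base excision on the log2(TPM + 1) scale. Over all tested genes it was 0.05. LIG4 (0.72), RIF1 (0.66) and TDP2 (0.56) departed upward the most, and OGG1, MUTYH and NTHL1 (each -0.43) downward. The replicates of the members had a median coefficient of variation of 13.02% in siCtrl and 6.97% in siNUDT5, beside 12.996% and 7.18% over all genes.

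Transcript GC content ran along with that departure. Across the 42 members, the GC content of the longest coding transcript (GENCODE 29, matched for all 42) and the departure of siCtrl 2 had a Pearson r of -0.90 and a Spearman rho of -0.91. Over 11560 genes with a matched transcript the values were -0.80 and -0.83. The points share the same libraries, so these are descriptions across genes. LIG4, at 36.2% GC, was highest above the other controls, and NTHL1, at 63.8%, was among the lowest. Median GC content was 44.2% in end joining, 42.1% in mismatch repair, 54.5% in base excision, 47.6% in single-strand break repair and 50% in nucleotide excision genes. Departures of siNUDT5 1 from the other siNUDT5 libraries followed GC less closely, with r = -0.42 across the members. What set these libraries apart was not tested.

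**Figure D4:**
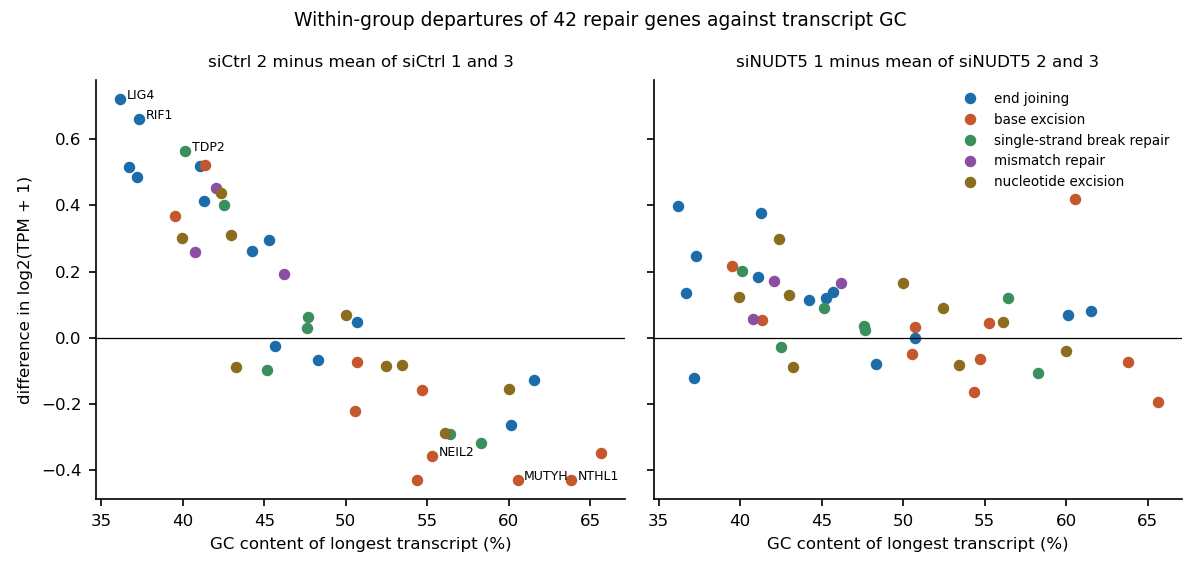
Difference of siCtrl 2 from the mean of siCtrl 1 and 3 (left) and of siNUDT5 1 from the mean of siNUDT5 2 and 3 (right) on the log2(TPM + 1) scale, against GC content of the longest transcript, for 42 genes coloured by pathway. On the left the points descend from LIG4 at 0.72 to MUTYH, NTHL1 and OGG1 at -0.43, and genes of both end joining and base excision lie above and below 0.

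Calls among the members depended on this library and on adjustment for GC. Without siCtrl 2, 9 of 42 members passed, 4 higher and 5 lower, where 31.1% of all genes passed, 21.9% higher and 9.27% lower. The 4 above were joined by TP53BP1, POLQ and TDP2 as higher and by XRCC4 and APEX1 as lower. A further fit, chosen after seeing the data, subtracted from each library its smooth trend with transcript GC, which also removes any part of the siRNA difference that follows GC. There 17 of 42 members passed (40.5%), beside 40.8% of 11560 genes, or 2404 higher and 2309 lower. The share among members again did not exceed the background.

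After that adjustment NEIL2 (log2 change 0.62), TP53BP1 (0.24), TDP2 (0.23), ERCC1 (0.16) and APTX (0.13) passed as higher. Those that passed as lower included XRCC4 (-0.43, adjusted p = 0.000468), XPC (-0.43), TDP1 (-0.40), UNG (-0.37), NEIL3 (-0.32) and ERCC2 (-0.32). The others were DCLRE1C (-0.28), POLM (-0.23), APEX1 (-0.22), MSH6 (-0.17), XRCC5 (-0.14) and PRKDC (-0.13, adjusted p = 0.0499). By pathway 6 of 13 end joining, 4 of 10 base excision, 3 of 7 single-strand break, 1 of 3 mismatch and 3 of 9 nucleotide excision genes passed. Over all genes 40.8% did.

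**Figure D5:**
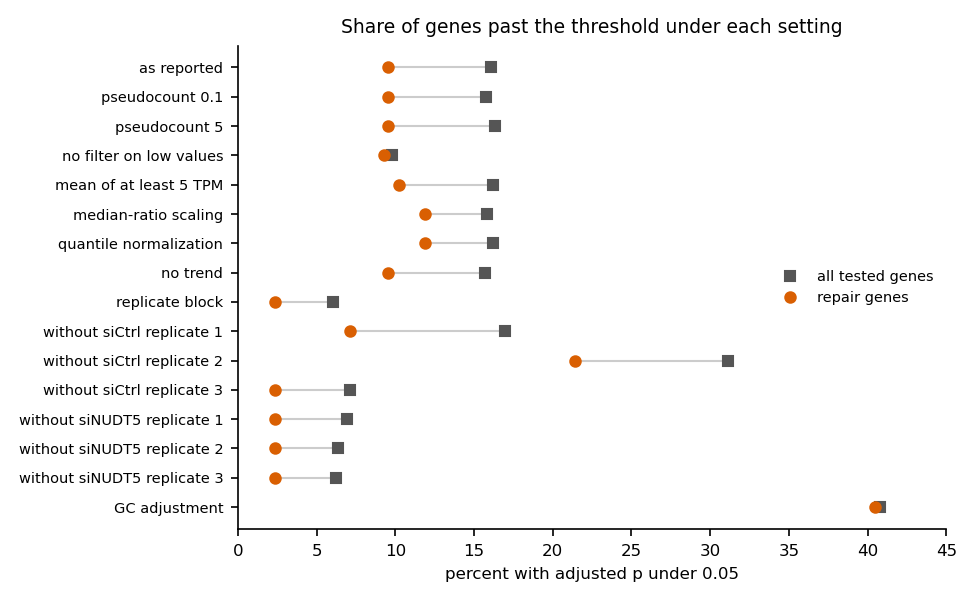
Percent of tested repair genes (orange circles) and of all tested genes (grey squares) past an adjusted p of 0.05 under each processing setting. The repair genes lie below all genes under each of the 16 settings shown, from 2.38% with the replicate block and 4 of the left-out libraries to 40.5% after GC adjustment.

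Ratios were formed between genes whose products bind each other or, for MSH6 and MSH3, compete for a partner. The TPM ratio of XRCC5 to XRCC6 was 0.615, 0.719 and 0.625 in siCtrl and 0.597, 0.540 and 0.561 in siNUDT5, without overlap. The log2 difference of this ratio was -0.20 (standard error 0.08), with an exact two-sided permutation p = 0.1, the smallest possible, and 0.5 after adjustment over the 5 ratios compared. XRCC4 to LIG4 went from 4.22 ± 0.495 to 3.69 ± 0.561, XRCC1 to LIG3 from 0.791 ± 0.139 to 0.760 ± 0.0411, ERCC1 to ERCC4 from 3.95 ± 0.985 to 4.53 ± 0.490 and MSH6 to MSH3 from 4.70 ± 0.460 to 4.34 ± 0.274 (SD, n = 3 each, exact permutation p from 0.3 to 0.8). Without siCtrl 2 the log2 difference of XRCC5 to XRCC6 was -0.13, and that of ERCC1 to ERCC4 was 0.02 against 0.22 with it. For XRCC1 to LIG3 it was -0.18 against -0.04, and for MSH6 to MSH3 -0.18 against -0.11. At 3 against 3 the exact permutation test cannot go below 0.1, so it says nothing on whether these ratios changed.

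Other genes of these pathways passed in shares of 5.26% of end joining, 16.7% of base excision and single-strand break, 13.04% of nucleotide excision and 7.14% of mismatch repair genes, where 16.1% of all genes did. Of 19 further tested end joining and break-end genes 1 rose, DYNLL1 (log2 change 0.30), a binding partner of 53BP1, and none fell. Of 18 further base excision and single-strand break genes the sliding clamp gene PCNA (0.38) and the mitochondrial polymerase gene POLG (0.36) rose and the alkylation repair gene ALKBH3 (-0.35) fell. The ADP-ribosylating break sensors PARP1 (log2 change 0.03) and PARP2 (0.02) did not pass. Of 23 further nucleotide excision genes RAD23B (0.28), whose product binds the XPC protein, rose, and GTF2H1 (-0.48) and GTF2H3 (-0.48), subunits of TFIIH, fell. Of 14 further mismatch repair genes 1 rose, the polymerase delta subunit gene POLD4 (0.55). The adjusted p of those 8 genes ran from 0.0245 to 0.0482. Without siCtrl 2, 31.1% of all genes passed, 21.9% higher and 9.27% lower. The calls in these lists were then 2 higher and 3 lower in end joining, 2 and 3 in base excision and single-strand break, 1 and 2 in nucleotide excision, and 2 and 0 in mismatch repair. The medians of these lists, in the order given, were -0.11, 0.04, -0.01 and -0.03 with siCtrl 2 and -0.05, 0.06, -0.01 and -0.01 without it.

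UNG and NEIL3 are known to be higher in dividing cells, so cell cycle genes are given beside them. Of 14 tested S phase genes 2 (14.3%) fell, TYMS (log2 change -0.29) and SLBP (-0.33), and none rose. Of all genes 16.1% passed, 10.9% higher and 5.20% lower. At an unadjusted p under 0.05 (limma) there were 4 of the 14, all lower, beside 31.0% of all tested genes in either direction. Without siCtrl 2 there were again 2 of the 14 past the threshold, both lower, beside 9.27% of all genes. Whether these shares differ was not tested. The median of the 14 was -0.05 (-0.02 without siCtrl 2). None of 10 G2 and M phase genes passed (limma, adjusted p), with a median of 0.07. At an unadjusted p under 0.05 there was 1 of them, beside 31.0% of all tested genes. Without siCtrl 2, 1 of the 10 passed as higher, beside 21.9% of all genes, and their median was 0.11. Their part in the values of UNG and NEIL3 was not tested, and in RNA from bulk cells fewer cells of a phase and less RNA per cell cannot be told apart.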

How the data were processed

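RNA of 6 U2OS libraries was measured, with groups and replicate numbers from the sample titles. The deposited values are TPM per gene symbol, which sum to 1000000 in siCtrl 1, the only library whose sum was taken. STAR 2.7.3a, DESeq2 1.22.1 and hg19 are named in the submitters' processing notes, without roles, and the annotation and strand setting were not given in the sources used here. Symbols were used as deposited.

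Tests used limma 3.58.1 in R 4.3.3 (lmFit and eBayes with trend) on log2(TPM + 1), two-sided, for genes averaging 1 TPM or more over all libraries, with Benjamini-Hochberg adjustment over 12236 genes and a threshold of 0.05. Changes on this scale understate those of low genes. TPM keeps no read totals, so relative depth came from genes under 0.3 TPM, where 80.6% to 86.1% of ratios between libraries lay within 0.1% of ratios of whole numbers up to 5. In simulated libraries with 300 of 12236 genes changed between siNUDT5 and siCtrl, 1%, 35% and 84% of changes of 0.3, 0.5 and 1 were recovered, with 5 false calls.

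The members, gene lists, tests and the rule for named genes (all members, and listed genes past the threshold or above 100 TPM, at most 6 a list) were chosen with earlier results of these data known. Of 101 further repair and cell cycle symbols, 100 were matched. GC content, 3' UTRs (GENCODE 29) and promoters (RefSeq) were read by symbol. Alternatives covered the pseudocount, filter, scaling, trend, replicate block, GC adjustment and each library left out. Figures used matplotlib 3.10.9.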

Additional observations from a re-analysis of the deposited data

How the results depend on the processing

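NEIL2 passed under all 15 alternatives, XPC under 10, and UNG and TDP1 under 9 each. With another pseudocount, filter or no trend the 4 member calls stood at 4. With median-ratio scaling and with quantile normalization 1 end joining gene, XRCC4, was added. With the replicate block 739 genes and 1 member were called, with 1 in base excision, 0 in single-strand break repair and 0 in nucleotide excision. The adjusted p was then 0.180 for UNG, 0.155 for TDP1 and 0.155 for XPC (limma). Deviations of same-numbered libraries from their group means correlated at -0.43, -0.54 and -0.04 across genes, and none of the controls correlated best with its own number. Deviations within a group depend on each other and siCtrl 2 stood apart. These values thus cannot tell whether same-numbered libraries were handled together. With GC adjustment, chosen after seeing the data, 4713 genes and 17 members passed, 6 in end joining, 4 in base excision, 3 in single-strand break repair, 1 in mismatch repair and 3 in nucleotide excision. Leaving out 1 library at a time gave 764 (without siNUDT5 3) to 3804 (without siCtrl 2) genes and 1 to 9 members, with 0 to 3 in end joining, 1 to 3 in base excision, 0 to 2 in single-strand break repair and 0 to 1 in nucleotide excision. The cause was not tested.

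No member past the threshold changed sign, but some near 0 did. LIG3 was at -0.034 with median-ratio scaling, -0.031 with quantile normalization and -0.018 with GC adjustment. ERCC4 was at -0.0054 and -0.025, and ERCC6 at -0.021 and -0.037, with median-ratio scaling and quantile normalization. SMUG1 was at -0.032 with GC adjustment. With 1 library left out, the log2 change ran from -0.14 to 0.019 in POLL, -0.26 to 0.12 in RIF1, -0.20 to 0.077 in OGG1, -0.21 to 0.10 in MUTYH, -0.010 to 0.12 in SMUG1 and -0.024 to 0.24 in TDG. It ran from -0.13 to 0.064 in XRCC1, -0.012 to 0.054 in LIG3, -0.22 to 0.037 in POLB and -0.14 to 0.050 in LIG1. It ran from -0.20 to 0.080 in MSH3, -0.084 to 0.057 in PMS2, -0.053 to 0.014 in DDB1, -0.065 to 0.15 in ERCC4 and -0.035 to 0.13 in ERCC6. The ratio of XRCC1 to LIG3 ran from -0.18 to 0.079 on the log2 scale.

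With 3 libraries a group, the 95% confidence interval of a member reached a median of 0.257 to either side. At the adjusted threshold the simulation recovered 1% of log2 changes of 0.3, 35% of 0.5 and 84% of 1. The simulation changed only 100 of 12236 genes at each size, whereas 16.1% of all tested genes passed in the data. The adjusted cut-off depends on how many genes change, so these shares do not give the recovery in this comparison. XPC, UNG and TDP1 passed here at log2 changes of less than 0.5 in size.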
